A study of Mus musculus with 10 samples.

Results

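The 10 genes Arntl, Clock, Per1, Per2, Per3, Cry1, Cry2, Nr1d1, Nr1d2 and Dbp form the core of the circadian clock, and every Ensembl transcript annotated to them in the count files was taken, whatever its value. Of the 22534 transcripts with counts, 12 belonged to 9 of these genes. Nr1d2 is not analysed here. Per1 had 4 transcripts and each of the other 8 genes had 1, and each gene is described by its leading transcript, the one with the most RNAseq reads.

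The cells were mixed cultures of neurons and glia from the cortex of newborn (P0) FVB mice, kept for 7 days, and no transgene or deletion is named for them. Cultures 1, 2 and 3 were left untreated, and cultures 4 and 5 were depolarized with 55 mM KCl for 3 h, a stimulus that imitates strong neuronal activity. All 5 cultures received cycloheximide, which stalls ribosomes on their mRNA, for 7 min before lysis. From each lysate an RNAseq library measured transcript abundance and a ribosome footprinting (RF) library measured ribosomal occupancy. The deposited counts cover the cultures as a whole, so that fewer cells of a type and less RNA per cell cannot be told apart.

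The clock is a feedback loop of transcription. The proteins of Arntl (BMAL1) and Clock bind E-boxes and switch on the Per and Cry genes, whose proteins return to the nucleus and repress their own activators, while the REV-ERB receptor Nr1d1 represses Arntl and Dbp carries the rhythm to output genes through D-boxes. Per1 is also known as an immediate early gene in neurons, where calcium and cAMP signals reach its promoter through CREB.

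Library totals were 3056286 to 3629959 reads in RNAseq and 1463654 to 7719915 reads in RF, with untreated culture 3 and KCl culture 4 the shallowest RF libraries. Changes were tested with edgeR's quasi-likelihood test over all transcripts with a mean of at least 3 CPM (read counts scaled to a common library size), with Benjamini-Hochberg adjusted p-values and a threshold of 0.05. This called 24.8% of 16865 transcripts in RNAseq, 32.6% of 16262 in RF and 3.04% of 15387 in translation efficiency (TE), the ratio of RF on the coding sequence (CDS) to RNAseq. Normalized CPM were scaled by TMM, and scaling by library totals instead shifted the median log2 change of all transcripts from -0.01 to -0.15 in RNAseq. Fos, an immediate early gene, rose after KCl by 1.64 on the log2 scale in RNAseq (edgeR adjusted p = 1.06e-11) and Sik1, a CREB target, by 2.16 (edgeR adjusted p = 9.28e-15). Both neurons and glia were visible in the counts, with reads in both assays for all 10 neuron, 8 astrocyte and 8 oligodendrocyte lineage markers and 7 of 8 microglia markers. The summed RNAseq level of the astrocyte markers was 9976 to 10900 normalized CPM in untreated cultures and 8935 to 9199 after KCl, and in RF it was 14530 to 14990 and 16640 to 16820. That of the neuron markers was 426.1 to 636.3 and 564.2 to 569.2 in RNAseq, and 357.0 to 533.9 and 541.9 to 621.2 in RF. For the microglia markers it was 178.1 to 192.8 and 155.4 to 178.2 in RNAseq, and 304.5 to 319.3 and 359.1 to 369.1 in RF. For the oligodendrocyte lineage markers it was 1203 to 1304 and 1188 to 1191 in RNAseq, and 945.8 to 1042 and 1092 to 1154 in RF. For 6 endothelial and mural markers it was 39.6 to 47.0 and 24.4 to 28.6 in RNAseq, and 65.3 to 95.8 and 52.0 to 63.2 in RF. In RF both KCl cultures thus lay above all untreated cultures for 4 of the 5 marker lists and below them for the endothelial and mural list. In RNAseq they lay below for the astrocyte, oligodendrocyte lineage and endothelial and mural lists. Of single transcripts, 27.3% showed such a separation in each direction in RF, and 24.3% lay below in RNAseq. Markers did not all follow their sum: of 7 microglia markers tested in RF, 3 were called higher and 1 (Cx3cr1) lower. The part of these shifts in the results that follow was not tested.

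In RNAseq, 3 of the 9 clock genes rose after KCl (Arntl, Cry1 and Per1) and none fell, against 13.3% of all transcripts called higher and 11.5% called lower. In RF the same 3 genes rose and Nr1d1 fell, against backgrounds of 17.3% higher and 15.3% lower. The median log2 change of the 9 genes was 0.44 in RNAseq and 0.20 in RF, beside -0.01 and -0.01 for all transcripts tested. Both KCl cultures lay above all untreated cultures for 5 of 9 genes in RNAseq, a separation that 24.6% of all transcripts showed, and below them for 1, which 24.3% showed. In RF the numbers were 4 above and 2 below, with 27.3% of all transcripts in each direction. With 3 cultures against 2, an exact permutation test of a single gene cannot go below p = 0.1, so each call rests on the spread estimated across all transcripts.

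**Figure D1:**
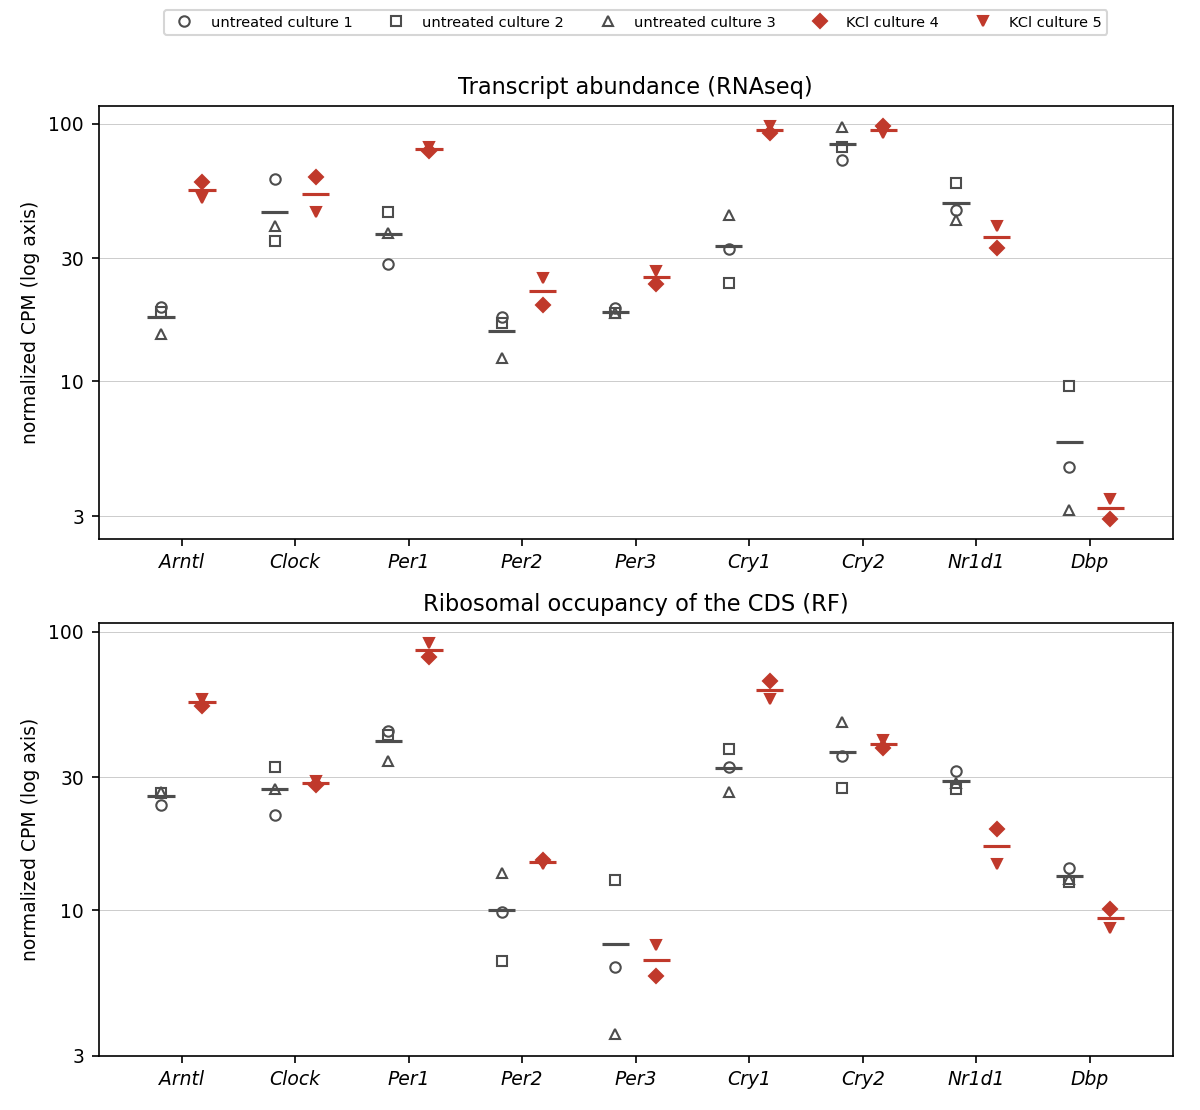
Normalized CPM (log axis) of the leading transcript of 9 clock genes in RNAseq (top) and RF (bottom), with 1 point per culture and a horizontal line at the mean of the 3 untreated (grey, open) or 2 KCl cultures (red, filled). The KCl points of Arntl, Per1 and Cry1 stand above all untreated points in both assays, those of Nr1d1 stand below them in both, and those of Clock and Cry2 overlap with the untreated points.

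Among the activators, Arntl rose and Clock did not pass the test. Arntl (transcript ENSMUST00000047321, chr7:113207465-113314126, plus strand, GRCm38) had 19.5, 18.7 and 15.2 normalized CPM of RNAseq in untreated cultures 1, 2 and 3 and 59.3 and 51.4 in KCl cultures 4 and 5. Both KCl values were well above every untreated value. The RNAseq change was 1.63 ± 0.21 on the log2 scale (SE), a 3.10-fold rise with an edgeR adjusted p of 1.48e-09. Ribosomal occupancy of the Arntl CDS was 23.9, 26.4 and 26.6 normalized CPM untreated and 54.2 and 57.6 after KCl, again with no overlap. This RF rise of 1.15 ± 0.17 on the log2 scale (edgeR adjusted p = 1.90e-07) was the highest RF estimate of the 9 genes, ahead of that of Per1 by less than its SE.

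Clock (chr5:76212177-76304548, minus strand), whose protein is the partner of BMAL1, varied among the untreated cultures as much as between the groups. Its RNAseq level was 61.2, 35.2 and 40.0 normalized CPM untreated and 61.9 and 45.3 after KCl, a log2 change of 0.23 ± 0.19 (edgeR adjusted p = 0.421). Without untreated culture 1, the highest of the 3, this change became 0.51 with an adjusted p of 0.0372 in edgeR. The Clock RF level was 21.9, 32.7 and 27.3 normalized CPM untreated and 28.2 and 29.2 after KCl, with a log2 change of 0.08 ± 0.20 (edgeR adjusted p = 0.794).

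Among the 5 Per and Cry repressors, Per1 and Cry1 rose in both assays and Per2, Per3 and Cry2 did not pass the test in either. Per1 (chr11:69098948-69109960, plus strand) had RNAseq levels of 28.6, 45.4 and 37.7 normalized CPM untreated and 78.2 and 80.9 after KCl. Its RF levels were 44.0, 42.7 and 34.4 normalized CPM untreated and 80.9 and 91.3 after KCl. In each assay the lower KCl culture was above the highest untreated culture. The log2 changes were 1.10 ± 0.18 in RNAseq (edgeR adjusted p = 1.52e-06) and 1.06 ± 0.15 in RF (edgeR adjusted p = 4.21e-08). The other 3 Per1 transcripts share most of these reads, since reads that mapped to several transcripts were kept, and their log2 changes ran from 1.04 to 1.08 in RNAseq and from 1.05 to 1.10 in RF.

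Cry1 (chr10:85131700-85185064, minus strand), a cryptochrome and strong repressor of the BMAL1-CLOCK pair, had RNAseq levels of 32.7, 24.1 and 44.1 normalized CPM untreated and 91.9 and 97.6 after KCl. The RNAseq rise was 1.498 ± 0.18 on the log2 scale, 2.82-fold, with an edgeR adjusted p of 3.35e-10. In RF the levels were 32.6, 38.0 and 26.6 normalized CPM untreated and 66.5 and 57.6 after KCl. The groups did not overlap, and the RF rise was 0.87 ± 0.16 on the log2 scale (edgeR adjusted p = 2.92e-05).

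Cry2 (chr2:92403646-92434043, minus strand), the other cryptochrome, had overlapping groups in both assays. Its RNAseq level was 72.3, 81.3 and 96.7 normalized CPM untreated and 98.1 and 91.7 after KCl, a log2 change of 0.19 ± 0.16 (edgeR adjusted p = 0.424). Its RF level was 35.8, 27.5 and 47.4 normalized CPM untreated and 38.3 and 40.8 after KCl, a log2 change of 0.20 ± 0.19 (edgeR adjusted p = 0.449). Of the Cry2 CDS, 149 bases lie opposite D930015M05Rik.

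Per2 (chr1:91415982-91459324, minus strand) had higher values in both KCl cultures than in any untreated culture in both assays but missed the threshold. Its RNAseq level was 17.8, 16.9 and 12.4 normalized CPM untreated and 19.9 and 25.1 after KCl, with a log2 change of 0.52 ± 0.26 and an edgeR adjusted p of 0.137. Its RF level was 9.88, 6.57 and 13.6 normalized CPM untreated and 15.2 and 14.6 after KCl, with a log2 change of 0.71 ± 0.29 and an edgeR adjusted p of 0.0543. The RF libraries held only 19 to 74 Per2 reads each, and without untreated culture 3 the RF change was 0.83 with an edgeR adjusted p of 0.0334.

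Per3 (chr4:151003652-151044665, minus strand) had KCl values above the untreated ones in RNAseq and among them in RF. In RNAseq its untreated cultures were close together at 19.2, 18.4 and 18.4 normalized CPM, and the KCl cultures were higher at 23.8 and 26.9, a log2 change of 0.44 ± 0.24 with an edgeR adjusted p of 0.186. In RF it ranged from 3.59 to 12.8 normalized CPM untreated and was 5.78 and 7.48 after KCl, on 5 to 82 reads per library. The RF estimate of -0.32 ± 0.40 (log2, edgeR adjusted p = 0.584) turned to 0.27 when untreated culture 2 was left out.

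Nr1d1 (REV-ERBα, chr11:98767932-98775333, minus strand), the repressor of Arntl, fell in ribosomal occupancy. Its RF level was 31.5, 27.2 and 28.7 normalized CPM untreated and 19.5 and 14.6 after KCl. The untreated cultures differed by little and both KCl cultures were lower, a change of -0.83 ± 0.22 on the log2 scale (edgeR adjusted p = 0.0027). The call rested on KCl culture 5, since without it the RF change was -0.58 with an edgeR adjusted p of 0.230. In RNAseq the levels were 46.4, 58.7 and 42.5 normalized CPM untreated and 32.9 and 40.0 after KCl, also without overlap, and the log2 change of -0.43 ± 0.19 missed the threshold (edgeR adjusted p = 0.0986). Scaled by library totals, the RNAseq change was -0.56 with an edgeR adjusted p of 0.0257. Of the Nr1d1 transcript, 263 exon bases (9.67%) lie opposite exons of Thra, 200 of them in the CDS. The part of this overlap in the RF fall was not tested. As no source used here calls the RNAseq counts stranded, any RNAseq reads of the 2 genes counted on these bases cannot be told apart.

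Dbp (chr7:45705088-45710203, plus strand), a PAR bZIP factor and a direct target of BMAL1 and CLOCK, had lower mean values after KCl in both assays without passing the test. Its RF level was 14.2, 12.7 and 12.9 normalized CPM untreated and 10.1 and 8.60 after KCl. Both KCl cultures were below all untreated cultures, with a log2 change of -0.54 ± 0.29 (edgeR adjusted p = 0.153). Scaled by library totals, the RF change was -0.71 with an edgeR adjusted p of 0.0496. The RNAseq libraries held 16, 32 and 10 Dbp reads untreated and 9 and 12 after KCl, so that the log2 change of -0.85 ± 0.50 (edgeR adjusted p = 0.217) rests on few reads. The groups overlapped in RNAseq, and without untreated culture 2 the RNAseq change was -0.28. The last 539 exon bases of Dbp, 29.3% of the transcript, lie opposite Sphk2. They hold 216 bases of the CDS and all 323 bases of the 3′UTR. No read was counted on the Dbp 3′UTR in any of the 10 libraries.

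**Figure D2:**
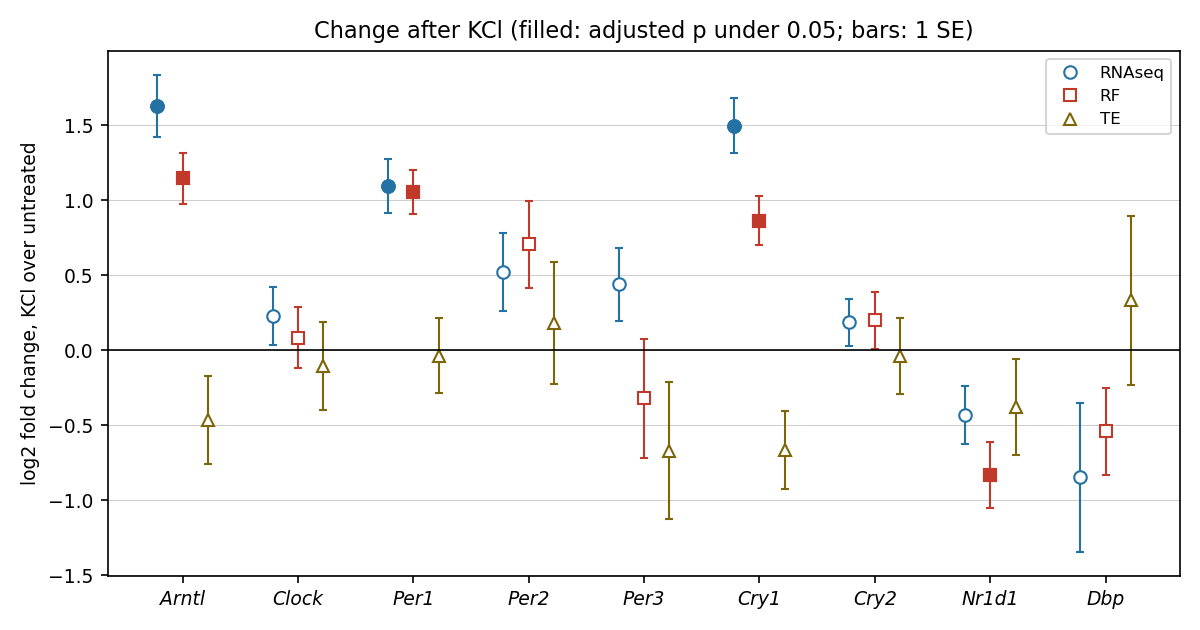
Log2 fold change of KCl over untreated cultures for RNAseq (circles), RF (squares) and TE (triangles) of 9 clock genes, with bars of 1 SE and filled symbols where the edgeR adjusted p was under 0.05. Arntl, Per1 and Cry1 are filled above 0 in RNAseq and RF, Nr1d1 is filled below 0 in RF, and no TE symbol is filled.

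TE did not pass the test for any of the 9 genes, beside 0.897% of all transcripts called higher and 2.14% called lower. The edgeR estimates were below 0 for 7 of the 9, those of Clock, Per1 and Cry2 by less than their SE. The share of all transcripts with an estimate below 0 was not computed. The median log2 change of the 9 genes was -0.11, beside 0.02 for all transcripts tested. Cry1, whose RNAseq estimate was larger than its RF estimate, had the lowest adjusted p. Its TE was 1.66, 2.62 and 1.00 untreated and 1.20 and 0.98 after KCl, a log2 change of -0.66 ± 0.26 with an edgeR adjusted p of 0.162. The groups overlapped for Cry1, and with RNAseq reads of the CDS only the TE change was -0.35. Arntl was the 1 gene with both KCl cultures below all untreated cultures in TE, a separation that 16.1% of all transcripts showed, and no gene had both above, as 15.0% of all transcripts did. Its TE was 1.89, 2.19 and 2.70 untreated and 1.41 and 1.73 after KCl, with a log2 change of -0.46 ± 0.29 (edgeR adjusted p = 0.483). For Per1 the TE estimate was close to 0, at -0.04 ± 0.25 on the log2 scale. For Nr1d1 it was -0.38 ± 0.32, and without KCl culture 5 it was 0.02.

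**Figure D3:**
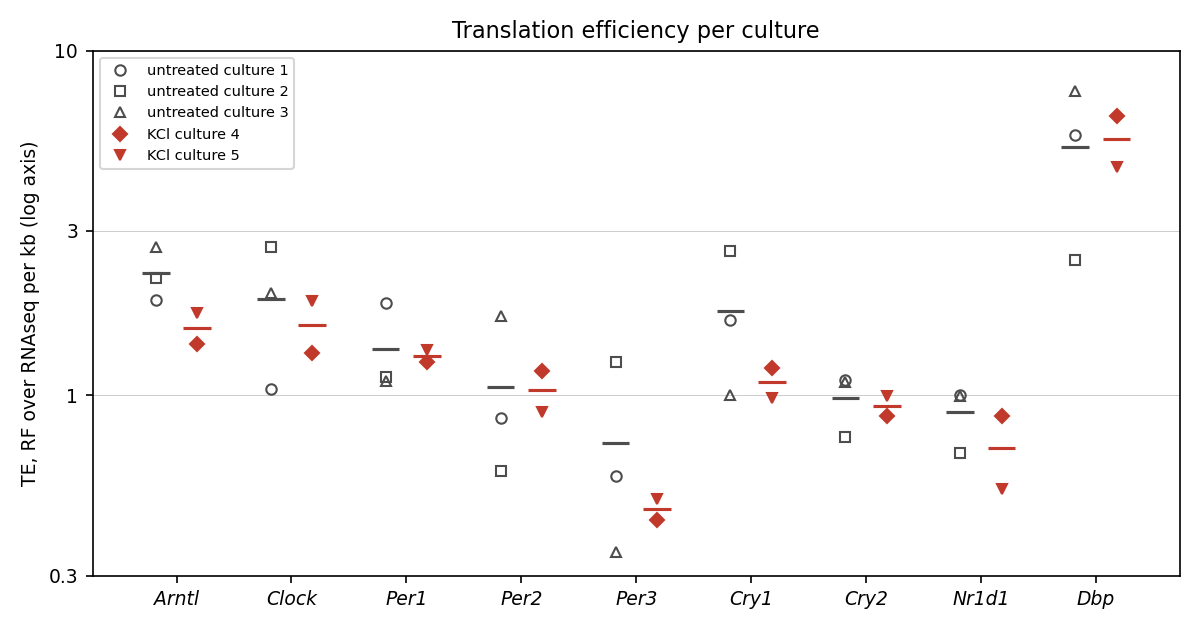
Translation efficiency (log axis), the ratio of RF per kb of CDS to RNAseq per kb of transcript, with 1 point per culture and a line at the group mean (untreated grey and open, KCl red and filled). Dbp lies between 2.47 and 7.65, above the other 8 genes in 4 of 5 cultures, and Arntl is the 1 gene whose KCl points both lie below its untreated points.

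Compared per kilobase, RNAseq levels of the clock genes in untreated cultures lay on both sides of the median of transcripts tested. Mean RNAseq levels ran from 2.69 ± 0.50 normalized CPM per kb for Per2 to 20.98 ± 3.11 for Cry2 (SD, n = 3), beside a median of 8.69 over transcripts tested. Cry2 and Nr1d1 (18.1 ± 3.11) overlapped in their ranges over cultures and were followed, clear of Nr1d1, by Cry1 (11.1 ± 3.32). The ranges of Cry1, Per1 (7.97 ± 1.81), Arntl (6.12 ± 0.78), Clock (6.08 ± 1.85) and Dbp (3.17 ± 1.84) each overlapped that of the next, as did Dbp and Per3 (3.11 ± 0.08), while Per2 lay just below Per3. After KCl, Cry1 reached 30.4 and 32.2 normalized CPM per kb, above Cry2 at 24.7 and 23.1, and Arntl reached 20.4 and 17.7, above Nr1d1 at 12.1 and 14.7.

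Per kilobase of CDS, untreated RF levels were highest for Cry2 (20.7 ± 5.61 normalized CPM per kb), Cry1 (17.8 ± 3.14) and Nr1d1 (15.8 ± 1.18), whose ranges overlapped in that order, and lowest for Per2 (2.66 ± 0.94) and Per3 (2.26 ± 1.42). The median over transcripts tested was 17.0. Dbp, at rank 7 of the 9 in RNAseq, ranked 5 in RF at 13.5 ± 0.81 normalized CPM per kb. Its untreated TE of 5.27 ± 2.62 (SD, n = 3) was above 90.4% of transcripts tested, on 10 to 32 RNAseq reads. At most 1 of these reads per library lay outside the 978 nt CDS, while the RNAseq level was taken over the whole 1837 nt transcript. Per3 at 0.73 ± 0.47, Nr1d1 at 0.89 ± 0.18 and Cry2 at 0.99 ± 0.20 had the lowest untreated TE, beside a median of 2.06, and their ranges overlapped.

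This order of TE depends on which RNAseq reads are used, as an alternative chosen after the data had been seen showed. With RNAseq reads of the CDS only, per kb of CDS in both assays, the untreated TE of Cry2 was 3.51, 3.27 and 3.64 in cultures 1, 2 and 3, a mean of 3.47 ± 0.19 (SD, n = 3) that was the highest of the 9 genes where it was 0.99 with reads of all regions. Its range overlapped those of Dbp, Arntl, Cry1 and Clock. Most Cry2 RNAseq reads were counted on its 3′UTR. The untreated TE of Dbp was then 3.23, 1.31 and 4.07, a mean of 2.88 ± 1.41 above 56.3% of transcripts, and the median over transcripts was 2.55. Per3 at 0.93 ± 0.63 and Nr1d1 at 0.88 ± 0.21 were the lowest of the 9 on this scale too.

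The CDS was not the only place where footprints of the clock genes were found. For the 8 genes with a 5′UTR of at least 50 nt, untreated footprints per nt of 5′UTR were 0.83 to 1.91 times those per nt of CDS, beside a median of 0.39 over 7974 leading transcripts. Dbp was highest at 1.91, a ratio that 4.47% of those transcripts reached, followed by Per1 at 1.81 (5.26%), Clock at 1.55 (7.22%) and Nr1d1 at 1.43 (8.83%). Cry2 has a 5′UTR of 20 nt and no footprint was counted on it.

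Dbp had about as many footprints on its 536 nt 5′UTR as on its 978 nt CDS. The RF reads on the Dbp 5′UTR were 111, 79 and 25 untreated and 12 and 29 after KCl, and those on its CDS were 106, 81 and 18 untreated and 14 and 23 after KCl. On the scale of the CDS, the Dbp 5′UTR had 14.8, 12.4 and 17.9 normalized CPM untreated and 8.67 and 10.9 after KCl. Both KCl cultures were lower on the 5′UTR as on the CDS, while the ratio of the densities stayed between 1.56 and 2.53 in all 5 cultures. For Nr1d1 too both KCl cultures were lower on the 5′UTR, with 13.4, 13.1 and 13.6 normalized CPM on the 5′UTR untreated and 8.67 and 7.85 after KCl, and a density ratio between 1.34 and 1.70.

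On the 5′UTRs of the genes that rose, footprints did not all move alike. Arntl 5′UTR footprints were 7.61, 4.22 and 6.46 normalized CPM untreated and 20.95 and 13.8 after KCl. Those of Cry1 were 10.3, 6.25 and 17.2 untreated and 24.6 and 22.1 after KCl. For both genes the KCl values lay above the untreated values, as they did on the CDS. Per1 5′UTR footprints were 4.00, 3.28 and 5.74 normalized CPM untreated and 3.61 and 7.48 after KCl, which overlap, on 5 to 30 reads per library. Per3, called in neither assay, had 1.20, 1.72 and 0.72 normalized CPM on the 5′UTR untreated and 5.78 and 3.37 after KCl. These rest on 1 to 11 reads per library, and its density ratio was 1.478, 1.035 and 1.544 untreated and 7.72 and 3.47 after KCl. No test was run on these 5′UTR values. The share of all transcripts with such separations on the 5′UTR, here and for Dbp and Nr1d1, was not computed.

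**Figure D4:**
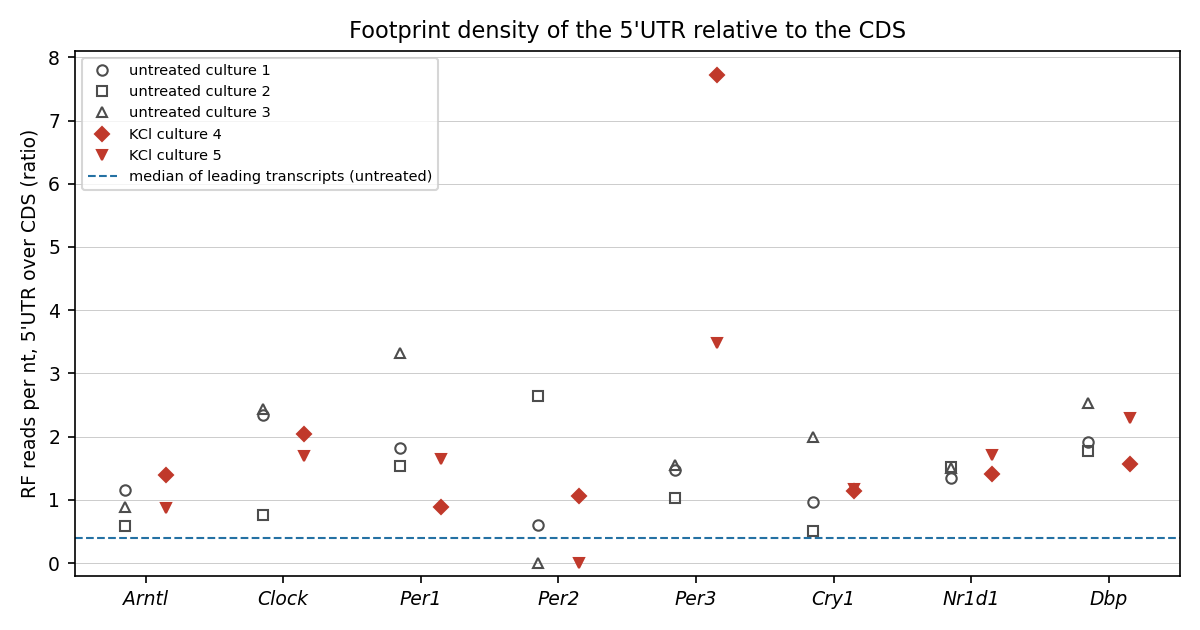
Ratio of RF reads per nt on the 5′UTR to RF reads per nt on the CDS for the 8 clock genes with a 5′UTR of at least 50 nt, with 1 point per culture (untreated grey and open, KCl red and filled) and a dashed line at 0.39, the median of 7974 leading transcripts in untreated cultures. Dbp and Nr1d1 lie above the line in all 5 cultures with little spread, and the Per3 point at 7.72 rests on 8 reads on each region.

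Upstream ATG codons are positions at which ribosomes can begin before the CDS. All 8 of these genes have at least 1 in the 5′UTR of their leading transcript, and the median over leading transcripts was 1. Arntl and Per3 have 4, a number that 12.9% of leading transcripts reached, and Cry1, Per1, Nr1d1 and Dbp have 2. They are shown for Nr1d1 and Dbp, the genes with both KCl cultures below all untreated cultures in RF, and for Per1. The ATG is in capitals, with 12 bases on each side and the distance of its A from that of the CDS start. Sequences are 5′ to 3′ from the GENCODE M21 transcripts (GRCm38).
Nr1d1 at -217: tctgctcttcccATGcaaatcagatct
Nr1d1 at -25: ggtccagtttgaATGaccgctttcagc
Dbp at -34: cttcgactctccATGagctcatgaacc
Dbp at -26: ctccatgagctcATGaacctgggagca
Per1 at -156: aacggcaagcggATGgagggcgctcga
Per1 at -11: gtcctccactgtATGgcccagacatga
The Nr1d1 ATG at -217 opens 63 codons before a stop and that at -25 opens 6, both closed within the 5′UTR and out of frame with the CDS. In Dbp the ATG at -34 opens 3 codons and that at -26 opens 13 codons that run past the CDS start out of frame. In Per1 the ATG at -156 opens 11 codons in frame with a stop inside the 5′UTR, and that at -11 opens 4 codons that reach into the CDS. The counts give no position within a region, so that no footprint can be placed on a given ATG.

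RNAseq reads on the 3′UTR and on the CDS moved by different amounts in the cryptochromes. For Cry1 the ratio of 3′UTR to CDS reads was 0.98, 1.23 and 1.42 untreated and 1.76 and 1.85 after KCl, and for Cry2 it was 6.09, 8.64 and 6.44 untreated and 11.5 and 11.1 after KCl. Both KCl cultures were above all untreated cultures for both genes, while the groups overlapped for Arntl, Clock, Per1, Per2, Per3 and Nr1d1. The share of all transcripts with such a separation of this ratio was not computed. The Cry2 CDS held 10.2, 8.43 and 13.0 normalized CPM untreated and 7.82 and 7.59 after KCl, on 24 to 41 reads per library, while its 3′UTR held 62.1, 72.8 and 83.7 untreated and 90.2 and 84.1 after KCl. With CDS reads alone the Cry2 RNAseq estimate was therefore -0.42 on the log2 scale (edgeR adjusted p = 0.496) in place of 0.19. Over whole libraries the 3′UTR share of RNAseq reads was 49.9% to 51.2% untreated and 51.8% to 53.3% after KCl, and its part in these ratios was not tested. For Arntl, Per1 and Cry1 the RNAseq rise held on the CDS alone, at 1.61, 1.05 and 1.23 on the log2 scale (edgeR adjusted p = 4.85e-05 or lower).

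The promoters of the members were read in RefSeq (GRCm38.p6) from 250 bases before to 50 bases after each annotated start. This covered 9 of the 10 genes, all but Per2, which had no promoter there and was not searched. Searched on both strands were the cAMP response element TGACGTCA and its core TGACG (which the full element contains), the E-box CACGTG, the D-box TTATGTAA, the ROR and REV-ERB element AGGTCA and the CArG box. They occur in 1.79%, 20.8%, 7.15%, 0.938%, 16.3% and 1.63% of the 32851 promoters of the table. The windows of the 3 genes that rose are shown with the motif in capitals, 5′ to 3′ along the gene, followed by the 2 D-boxes of Per3.
Arntl ROR element, chr7:113207530-113207559: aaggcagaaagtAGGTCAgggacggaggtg
Per1 core element, chr11:69098699-69098728: ttatTGACGgtgtgagacatcctgatcgca
Per1 E-box, chr11:69098771-69098800: agcacccaagtcCACGTGcagggatgtgtg
Per1 ROR element (reverse strand), chr11:69098800-69098829: gtgacacagcccTGACCTcagtgggggcca
Per1 core element of the downstream promoter, chr11:69100008-69100037: gagctcagcggcTGACGtcggtttccctgg
Cry1 E-box, chr10:85185097-85185126: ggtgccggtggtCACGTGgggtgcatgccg
Cry1 core element, chr10:85185045-85185074: ggcggaggccgcTGACGcggcggagtcacc
Per3 distal D-box, chr4:151044852-151044881: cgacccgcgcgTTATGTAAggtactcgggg
Per3 proximal D-box, chr4:151044805-151044834: cccgcccgcggTTATGTAAcccccgccgtg
Counted from the start, the motif begins at 31 in Arntl, at -246, -166 and -137 in the upstream Per1 promoter, at -132 in the downstream one, at -60 and -8 in Cry1 and at -205 and -158 in Per3. Cry2 holds a core element at -209 on the reverse strand, and 1 of the 3 Clock promoters holds an AGGTCA on the reverse strand at -119. None of these motifs is in the windows of Nr1d1 and Dbp. No member window holds the full TGACGTCA or a CArG box, and a match or its absence in these letters is a description of the window only.

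Other transcription factors of the clock, taken as a list of 12, changed in both directions. In RNAseq 4 of 9 tested rose and 3 fell, against 13.3% of all transcripts higher and 11.5% lower. In RF 3 of 9 rose and 4 fell, against 17.3% and 15.3%. The median log2 change of the list was -0.05 in RNAseq and 0.16 in RF, beside -0.01 and -0.01 for all transcripts. Nfil3, which binds the same D-boxes as Dbp and represses there, had 30.9, 37.6 and 34.6 normalized CPM of RNAseq untreated and 286.7 and 291.8 after KCl. This rise of 3.07 ± 0.15 on the log2 scale (edgeR adjusted p = 1.20e-28) exceeded the estimate of every member, and its RF rise was 2.72 ± 0.14 (edgeR adjusted p = 3.14e-24). Rora and Rorb, the receptors that activate Arntl at the site REV-ERB represses, rose by 1.41 ± 0.19 and 1.06 ± 0.14 in RNAseq and by 1.84 ± 0.21 and 1.22 ± 0.13 in RF on the log2 scale, each with an edgeR adjusted p of 1.12e-08 or lower. Timeless, a replication fork protein first tied to the clock in flies, fell by 2.07 in RNAseq and by 1.88 in RF on the log2 scale (edgeR adjusted p = 0.00105 and 3.98e-04), on 2 to 11 reads per KCl library, and without KCl culture 5 the RNAseq call was lost (edgeR adjusted p = 0.140).

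Bhlhe40 and Bhlhe41, E-box repressors that oppose BMAL1 and CLOCK, were named after their values had been seen, as were Tef and Hlf, the remaining called genes of this list. Tef rose by 0.45 in RNAseq on the log2 scale (edgeR adjusted p = 0.0398). Hlf fell by 1.62 in RF (edgeR adjusted p = 0.0322), on 1 and 5 reads in the KCl libraries. Bhlhe41 fell by 1.00 in RNAseq and by 1.06 in RF on the log2 scale (edgeR adjusted p = 1.76e-04 and 8.03e-05), and with RNAseq reads of the CDS only the RNAseq call was lost (edgeR adjusted p = 0.0974). Bhlhe40 had RF levels of 92.2, 115.8 and 96.2 normalized CPM untreated and 54.9 and 39.6 after KCl, a fall of 1.16 on the log2 scale (edgeR adjusted p = 2.19e-08). Its RNAseq change was -0.43 (edgeR adjusted p = 0.0358) and its TE change was -0.72 (edgeR adjusted p = 0.0477), and both calls were lost in several alternatives, the RNAseq change becoming -0.18 without KCl culture 4 and the TE change -0.17 without KCl culture 5.

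Kinases and ubiquitin ligases that set the life span of PER and CRY proteins rose or did not pass the test. Of 10 listed, 5 of 8 tested rose in RNAseq, against 13.3% of all transcripts, and 4 of 7 in RF, against 17.3%. None was called lower in either, against 11.5% and 15.3%, and the median log2 changes were 0.45 and 0.42, beside -0.01 and -0.01 for all transcripts. Csnk1d, the kinase that marks PER for degradation, rose by 0.97 ± 0.13 in RNAseq and 0.42 ± 0.11 in RF on the log2 scale (edgeR adjusted p = 1.15e-08 and 0.00237). The RF call was lost without KCl culture 5, at 0.36 (edgeR adjusted p = 0.122), and with scaling by library totals, at 0.25 (edgeR adjusted p = 0.0732). Its TE was 2.12, 1.87 and 1.70 untreated and 1.30 and 1.29 after KCl, with a log2 change of -0.55 ± 0.18 that missed the threshold (edgeR adjusted p = 0.0749). This TE change passed it with scaling by library totals, at -0.59 (edgeR adjusted p = 0.0458), and with the study's RPKM minimum (edgeR adjusted p = 0.0409), while with RNAseq reads of the CDS only it was -0.19. Fbxw11, a ligase subunit that binds phosphorylated PER, rose by 0.80 in RNAseq and 0.65 in RF, and Gsk3b, a kinase of several clock proteins, by 0.60 and 0.47 on the log2 scale. With RNAseq reads of the CDS only, both RNAseq calls were lost, at 0.33 for Fbxw11 and 0.34 for Gsk3b (edgeR adjusted p = 0.417 and 0.195). Csnk2a2, a catalytic subunit of casein kinase 2, rose in RNAseq by 0.50 (edgeR adjusted p = 0.0238), a call lost in 6 of 13 alternatives, with an RF change of 0.01.

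Of 8 symbols listed for clock-controlled output genes, 4 had counts, of which 2 rose in RNAseq and 3 in RF, against 13.3% and 17.3% of all transcripts. Cdkn1a (p21), an inhibitor of the cell cycle, rose by 0.97 ± 0.14 in RNAseq and 1.32 ± 0.14 in RF on the log2 scale (edgeR adjusted p = 3.06e-08 and 8.27e-11). Nampt, the rate-limiting enzyme of NAD salvage, rose by 0.83 ± 0.20 and 0.76 ± 0.14 (edgeR adjusted p = 8.23e-04 and 2.90e-05), and its RNAseq call was lost without KCl culture 4, at 0.49 (edgeR adjusted p = 0.205), and with RNAseq reads of the CDS only, at 0.48 (edgeR adjusted p = 0.422). Por, the electron donor of cytochrome P450 enzymes, rose in RF, by 0.43 ± 0.09 (edgeR adjusted p = 1.91e-04), beside an RNAseq change of 0.21, and the difference between the assays did not pass the test (TE edgeR adjusted p = 0.641).

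**Figure D5:**
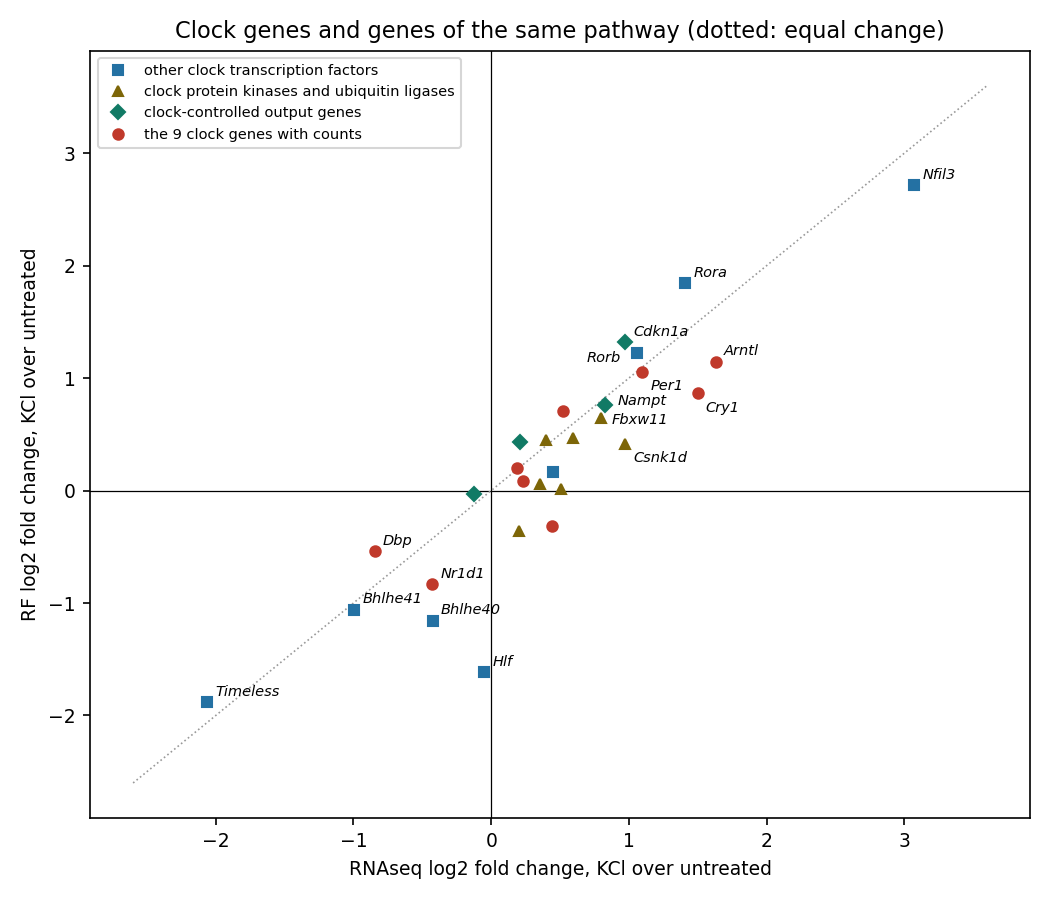
RNAseq log2 fold change (horizontal axis) against RF log2 fold change (vertical axis) of KCl over untreated cultures for the 9 clock genes (red circles), 8 other clock transcription factors (blue squares), 7 kinases and ligases (brown triangles) and 4 output genes (green diamonds), with a dotted line where both changes are equal. Names are given for the larger changes. Nfil3 is at the upper right, Arntl and Cry1 lie below the line, and Timeless is at the lower left.

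Over the 10 libraries, with log2 levels centred within each assay, the genes most like Per1 among 7516 compared were Sh3rf1 (Pearson r = 0.984), Tfip11 (0.984) and Hcfc1 (0.983). Arntl followed at rank 310 (r = 0.913) and Cry1 at rank 682 (r = 0.857), while Nr1d1 ran opposite to Per1 with r = -0.76. These values are a description, since the libraries share cultures and the treatment.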

How the data were processed

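RNAseq and RF libraries of 3 untreated and 2 KCl cultures were grouped by their titles, and culture numbers tie both libraries of a lysate. As deposited, the files hold raw read counts per region of each Ensembl transcript. The authors trimmed reads (Trimmomatic 0.32), removed rRNA (STAR 2.3.1z8) and took degenerate sequences out of the mm10 transcriptome of Ensembl. They aligned to this transcriptome with Bowtie2 2.2.2, kept multi-mapped reads and counted with bedtools 2.20.1. The authors left out KCl replicate 3 for its small library. RNAseq counts were summed over all regions, and RF counts were taken from region b. The region letters are not explained in the sources used here: across 12181 transcripts the read shares of a, b and d followed annotated 5′UTR, CDS and 3′UTR length (Spearman rho 0.51, 0.64 and 0.66), and region c was not named.

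Transcripts with a mean CPM of at least 3 in an assay were tested with edgeR 4.0.16 in R 4.3.3 (robust quasi-likelihood fit, TMM within the assay). TE was the interaction of assay and treatment with the culture number as a replicate block, which comes from the shared lysate. Deviations of both libraries of a culture did not correlate (r from -0.05 to 0.02 in untreated cultures). SE values were computed as the log2 change over the square root of F. The study's own minimum, an RPKM of 10 in both assays, was tried only as an alternative because it leaves out some of the clock genes. As recomputed here it kept 7258 transcripts and left out Clock, Per2, Per3 and Dbp. The number differs from the paper's, and the clock genes in the study's own set may differ too. The other alternatives were DESeq2 1.42.0, other filters and scalings, CDS reads only and each culture left out. Fits were tested on simulated data. p-values measure the spread between these cultures, and whether they came from separate litters is not stated.

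Members and gene lists were chosen with earlier results of these data known. Named beside the members were called genes of each list with the largest RNAseq change, up to 4 per list, and Fos and Sik1. Bhlhe40, Bhlhe41, Tef and Hlf were named beyond this rule. Coordinates and lengths come from GENCODE M21 (GRCm38), where 22172 of the 22534 transcripts matched.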

Additional observations from a re-analysis of the deposited data

How the results depend on the processing

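Over the 27 values of the 9 clock genes (RNAseq, RF and TE) and 339 alternative values, the side of the threshold was kept in 334, and no called value changed direction. The exceptions were gains for Clock and Nr1d1 in RNAseq and for Per2 and Dbp in RF, each under 1 alternative, and the loss of the Nr1d1 RF call without KCl culture 5. Across the cultures left out the Nr1d1 RF change ran from -1.001 to -0.58. The rises of Arntl, Per1 and Cry1 in RNAseq and RF passed the threshold in every alternative run, with log2 changes of 1.496 to 1.74, 0.93 to 1.27 and 1.23 to 1.74 in RNAseq and 0.98 to 1.20, 0.89 to 1.13 and 0.70 to 0.99 in RF. Estimates of uncalled genes changed sign in some alternatives (Cry2 and Clock in RNAseq, Clock and Per3 in RF, and Clock, Per1, Per2, Cry2, Nr1d1 and Dbp in TE).

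Of all transcripts, 4184 were called in RNAseq, 5296 in RF and 468 in TE. With the study's RPKM minimum, RNAseq had 2405 and RF 3014, of 7258 tested. With 1 transcript per gene there were 2508, 3079 and 287, since fewer transcripts were tested. CDS reads only gave 2023 in RNAseq and 247 in TE. DESeq2 gave 3064, 3211 and 174. Leaving out cultures gave 2484 (without KCl culture 4) to 4488 in RNAseq, 2555 (without KCl culture 5) to 5547 in RF and 54 (without KCl culture 5) to 610 in TE, with 2623 and 3453 for the other KCl culture in RNAseq and RF, 119 without KCl culture 4 and 301 without untreated culture 3 in TE. Without the replicate block TE had 408 calls, and no call of a clock gene changed. Scaling by library totals moved the share of higher calls from 53.7% to 35.7% in RNAseq and from 53.0% to 31.1% in RF. Where no cause is given, the cause was not tested. Shallow RF libraries limit Per2, Per3 and Dbp, and few RNAseq reads limit Dbp.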
